A study of Mus musculus with 5 samples.

Results

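The thick ascending limb of the loop of Henle was followed through 8 genes, Umod, Slc12a1, Kcnj1, Bsnd, Casr, Ptger3, Egf and Fxyd2, which were taken by exact symbol from a deposited table of 21878 genes. All 8 were found. The kidneys came from NZB/NZW F1 mice, the offspring of NZB/BINJ females and NZW/LacJ males, a cross that develops lupus-like nephritis spontaneously. Mice of 1 group (3 libraries) had been injected intraperitoneally with the plant flavone diosmetin, at 50 mg/kg on alternate days over 6 weeks, and those of the other (2 libraries) with vehicle on the same schedule. The series' design text asks about type I interferon signalling in this tissue. The sources used here do not give the age and sex of the animals, and whole kidney was profiled without sorting. Expression is given as FPKM, fragment numbers scaled to transcript length and library total, so levels of different genes can be set side by side per length.

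The thick ascending limb takes up salt without water and thereby dilutes the urine and builds the osmotic gradient of the medulla. Sodium, potassium and chloride enter its cells through the apical cotransporter NKCC2 (Slc12a1). Potassium returns to the lumen through ROMK (Kcnj1), chloride leaves on the basolateral side with the help of barttin (Bsnd), and sodium is pumped out by the Na,K-ATPase, which the gamma subunit (Fxyd2) modulates. The calcium-sensing receptor (Casr) and the prostaglandin E2 receptor EP3 (Ptger3) restrain this transport. Uromodulin (Umod) is the main protein of normal urine, and Egf encodes the precursor of epidermal growth factor. Umod and Slc12a1 are the most restricted of these genes to the segment. Kcnj1 is also made in principal cells of the collecting duct, Bsnd in intercalated cells and the distal tubule, Egf in the distal convoluted tubule and Fxyd2 in the proximal tubule.

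By the mouse RefSeq annotation of GRCm38.p6, Umod (GeneID 22242) spans chromosome 7 from 119462708 to 119479262, Slc12a1 (GeneID 20495) chromosome 2 from 125152510 to 125230002, and Kcnj1 (GeneID 56379) chromosome 9 from 32372418 to 32399197. Bsnd (GeneID 140475) spans chromosome 4 from 106483456 to 106492243, Casr (GeneID 12374) chromosome 16 from 36490585 to 36562141, and Ptger3 (GeneID 19218) chromosome 3 from 157566821 to 157644758. Egf (GeneID 13645) lies on chromosome 3 from 129677574 to 129755322 and Fxyd2 (GeneID 11936) on chromosome 9 from 45399709 to 45410278. These are whole gene spans with exons and introns.

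Promoter sequence from RefSeq on GRCm38.p6 was at hand for 6 of the 8 genes, in 7 windows of 300 bases (250 before the start and 50 after it). Below, the bases upstream of the annotated gene span are given 5′ to 3′ for 3 genes that shared their highest and lowest libraries, Umod, Slc12a1 and Casr, and for Egf, whose level hardly varied. Capitals mark GTTAAT, a half-site of the HNF1 transcription factors, which are known to act on Umod in the mouse.
Umod, chr7:119479263-119479512, minus strand: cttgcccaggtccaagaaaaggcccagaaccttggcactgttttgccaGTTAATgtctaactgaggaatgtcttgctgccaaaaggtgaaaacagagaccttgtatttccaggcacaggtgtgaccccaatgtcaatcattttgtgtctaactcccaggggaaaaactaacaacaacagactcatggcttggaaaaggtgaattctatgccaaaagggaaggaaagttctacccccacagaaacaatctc
Slc12a1, chr2:125152350-125152509, plus strand: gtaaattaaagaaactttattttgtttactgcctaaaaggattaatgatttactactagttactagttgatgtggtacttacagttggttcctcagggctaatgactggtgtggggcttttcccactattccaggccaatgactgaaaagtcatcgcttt
Casr, chr16:36562142-36562384, minus strand: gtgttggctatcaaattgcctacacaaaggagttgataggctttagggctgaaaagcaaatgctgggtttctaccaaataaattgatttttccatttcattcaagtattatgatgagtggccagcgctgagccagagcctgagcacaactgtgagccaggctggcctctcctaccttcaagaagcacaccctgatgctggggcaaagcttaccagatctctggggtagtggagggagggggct
Egf, chr3:129755323-129755572, minus strand: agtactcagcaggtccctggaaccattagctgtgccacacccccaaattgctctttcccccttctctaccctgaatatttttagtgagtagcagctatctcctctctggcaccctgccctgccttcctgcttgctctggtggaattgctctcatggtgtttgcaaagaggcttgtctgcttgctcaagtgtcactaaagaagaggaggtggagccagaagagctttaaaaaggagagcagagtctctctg

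GTTAAT, searched on both strands, was in the window of 1 of the 6 genes, Umod, and in 7.10% of all 32851 windows of the table. AAGGTCA, a half-site of the oestrogen-related receptors, was in none of the 6 and in 4.72% of all windows. These matches describe the letters of the windows alone, and the motifs do not overlap each other.

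The 8 genes covered a wide range of levels, and their order was the same in every library apart from Umod and Fxyd2. Umod had the highest mean at 1341 ± 335 FPKM (SD, n = 5), followed by Fxyd2 at 1044 ± 65.4, Egf at 841 ± 28.8 and Slc12a1 at 333 ± 48.8. Kcnj1 stood at 174 ± 21.6 FPKM, Casr at 41.9 ± 7.45, Bsnd at 31.2 ± 4.79 and Ptger3 at 17.2 ± 4.37. Neighbours in this order had separate ranges over the 5 libraries except for Umod and Fxyd2, where Umod was above in 3 of 5 libraries, and Casr and Bsnd, where Casr was above in 5 of 5. Umod and Slc12a1, the defining genes of the segment, were thus abundant in every library.

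Estimated depth was 38.4 M fragments for vehicle replicate 1, 48.6 M for vehicle replicate 2, and 46.9, 43.0 and 45.1 M for diosmetin replicates 1, 2 and 3. At those depths Umod rested on 99781 to 196900 fragments per library and Bsnd on 2763 to 4467. Fragment numbers of Casr, Ptger3 and Egf were not estimated. The vehicle libraries stood apart from each other in macrophage genes. The summed level of 10 macrophage markers was 81.1 FPKM in vehicle replicate 1 and 244 in replicate 2, against 126 to 190 under diosmetin. The labels do not tie the libraries to separate animals, so the p-values cover only library-to-library spread, which could be technical. Whole-kidney RNA cannot tell fewer cells of a segment from less RNA per cell.

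Of the transport genes, Kcnj1 and Bsnd were higher in every diosmetin library than in either vehicle library, while Slc12a1 overlapped between the groups. None of the 8 genes passed the test over all genes. Slc12a1 was at 272 and 346 FPKM with vehicle and at 299.1, 397 and 353 under diosmetin. Vehicle replicate 2 stood above diosmetin replicate 1, and the group means differed by 1.13-fold, less than the ratio between the vehicle libraries (1.27).

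Kcnj1 was at 151 and 158 FPKM with vehicle and at 173, 205 and 183 under diosmetin, and the groups did not overlap. Its log2 difference was 0.27 ± 0.09 (SE), with a 95% interval of 0.05 to 0.50 (limma, unadjusted p = 0.0256, adjusted p = 0.738). Bsnd was at 26.1 and 27.4 FPKM with vehicle and at 34.6, 37.5 and 30.3 under diosmetin. The vehicle libraries of Bsnd lay close together (ratio 1.05), and the log2 difference was 0.33 ± 0.10 (limma, unadjusted p = 0.0140, adjusted p = 0.738). Its interval ran from 0.09 to 0.57.

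Fxyd2 was the only gene of the 8 with a lower mean under diosmetin. It was at 1133 and 1041 FPKM with vehicle and at 1082, 972 and 993 under diosmetin. Diosmetin replicate 1 lay between the vehicle libraries, and the log2 difference was -0.10 ± 0.12 (limma, adjusted p = 0.852), with an interval of -0.39 to 0.19.

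**Figure D1:**
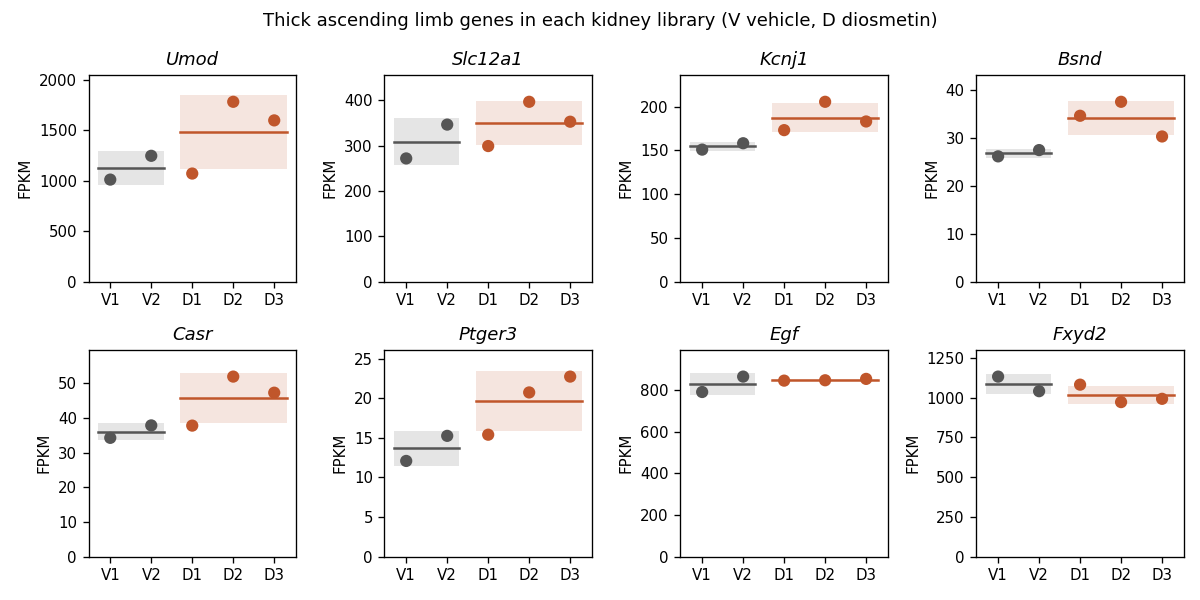
FPKM of each gene (y axis, from 0) in the 2 vehicle libraries (V1, V2, grey) and the 3 diosmetin libraries (D1 to D3, orange), with the group mean as a line and ± 1 SD as a band. For Kcnj1, Bsnd and Ptger3 all orange points lie above both grey ones, by 15.4 against 15.2 FPKM at the closest for Ptger3, while Egf stays between 792 and 866 FPKM.

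The receptors that restrain transport had the same pattern as Umod, with diosmetin replicates 2 and 3 high and diosmetin replicate 1 near the vehicle libraries. Casr was at 34.3 and 37.9 FPKM with vehicle and at 37.8, 52.0 and 47.3 under diosmetin, so that the groups touched. Its log2 difference was 0.32 ± 0.14 (limma, unadjusted p = 0.0559, adjusted p = 0.738).

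Ptger3 had the largest fold of the 8 genes, 1.44. It was at 12.1 and 15.2 FPKM with vehicle and at 15.4, 20.7 and 22.7 under diosmetin. The groups did not overlap, but diosmetin replicate 1 and vehicle replicate 2 were almost equal. The log2 difference was 0.48 ± 0.18 (limma, unadjusted p = 0.0335, adjusted p = 0.738), with an interval of 0.05 to 0.91.

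Of the secreted products, Umod varied most and Egf least. Umod was at 1011 and 1246 FPKM with vehicle and at 1071, 1781 and 1597 under diosmetin. In 2 of 3 diosmetin libraries it exceeded both vehicle libraries, and the log2 difference of 0.37 ± 0.24 had an interval from -0.23 to 0.96 (limma, adjusted p = 0.759). Egf was at 792 and 866 FPKM with vehicle and at 846, 848 and 855 under diosmetin. All diosmetin values of Egf lay between the vehicle values, with an SD of 4.41 FPKM among them and a coefficient of variation of 3.42% over the 5 libraries, against 25.01% for Umod. The log2 difference of Egf was 0.04 (interval -0.21 to 0.29), and it was -0.02 with libraries rescaled by their median of ratios to the geometric mean.

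In sum over the 8 genes, 7 had a higher mean under diosmetin and 1 a lower one, against 63.9% and 36.1% of the 13290 genes tested, and their median log2 difference was 0.30, against 0.04 over all genes tested. With the median-of-ratios scaling 6 were higher (Egf turned), and the all-gene split was 6488 higher to 6802 lower. At an adjusted p of 0.05 limma called 0 of 8 (background 0.0%), and the all-gene count was also 0, with 847 genes (6.37%) at an unadjusted p under 0.05. At that unadjusted level were 3 of the 8, Kcnj1, Bsnd and Ptger3, all higher, against 4.68% of all genes in that direction. These same 3 genes were also those without overlap between the groups, against 18.3% of all genes in that direction, and 0 of 8 were separated in the other direction (6.17%).

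The counts and differences changed when single libraries were left out. Without vehicle replicate 1 the difference of Slc12a1 was 0.0033 and that of Umod 0.22. Those of Kcnj1, Bsnd and Ptger3 were then 0.24, 0.30 and 0.33, against 0.27, 0.33 and 0.48 with all libraries. Without diosmetin replicate 1 limma put 5 of the 8 at an unadjusted p under 0.05, all higher (all genes in that direction 6.23%). Umod then differed by 0.59, and the groups did not overlap for 6 in the higher direction (all genes 32.8%). Without vehicle replicate 2 Slc12a1 differed by 0.35, and 7 were separated in the higher direction from the lone vehicle library (all genes 45.2%). An unadjusted p under 0.05 by limma was reached by 2 without diosmetin replicate 2 (all genes 2.04%) and by 1 without diosmetin replicate 3 (3.47%). Counts of the 8 genes at this level are not given where a lone vehicle library remained. The number separated in a direction can only stay or rise when a library is left out.

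**Figure D2:**
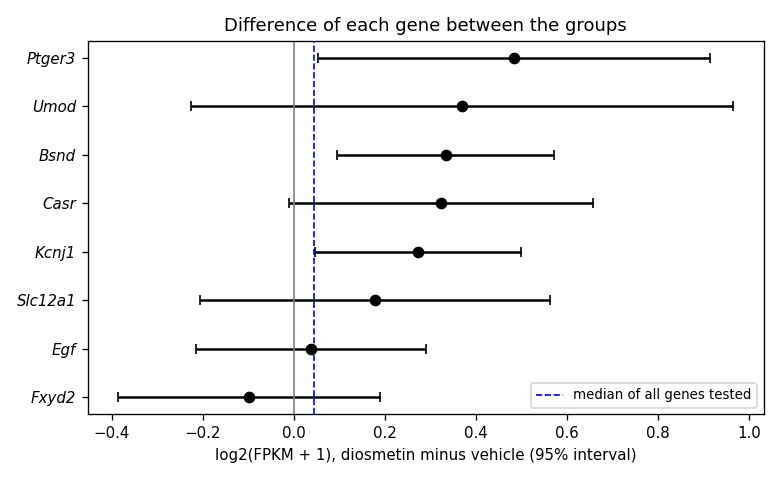
Difference of each gene between the group means on the log2(FPKM + 1) scale (x axis, diosmetin minus vehicle), with 95% intervals from limma (3 diosmetin and 2 vehicle libraries), ordered by size. The intervals of Ptger3, Bsnd and Kcnj1 lie above 0 before adjustment for multiple tests, and the dashed line marks the median of all genes tested, 0.04.

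Within the set, the genes differed in which libraries were high. Relative to its own mean on the log2 scale, Umod ranged from -0.37 in vehicle replicate 1 to 0.44 in diosmetin replicate 2, and Slc12a1 from -0.28 to 0.26 in the same libraries. Vehicle replicate 1 was the lowest library for 7 of the 8 genes and the highest for Fxyd2. Diosmetin replicate 2 was the highest for 5, Umod, Slc12a1, Kcnj1, Bsnd and Casr, while Ptger3 peaked in diosmetin replicate 3 and Egf in vehicle replicate 2. The profiles closest to each other were those of Kcnj1 and Casr, with a root mean square difference of 0.09 on the log2 scale over the 5 libraries, and the farthest were Umod and Fxyd2 (0.40).

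Ratios of 2 genes within a library are not altered by a factor applied to the whole library. The ratio of Umod to Slc12a1 was 3.72 and 3.60 under vehicle and 3.58, 4.49 and 4.53 under diosmetin, so that diosmetin replicate 1 lay with the vehicle libraries. Kcnj1 to Slc12a1 was 0.555 and 0.457 against 0.579, 0.518 and 0.519, and Bsnd to Slc12a1 was 0.0961 and 0.0792 against 0.116, 0.0945 and 0.0858. Thus neither Kcnj1 nor Bsnd was separated between the groups once set against Slc12a1.

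The groups did not overlap for either receptor on this measure, for which no share over all genes was computed. Casr to Slc12a1 was 0.1262 and 0.109 under vehicle and 0.1265, 0.131 and 0.134 under diosmetin. Vehicle replicate 1 and diosmetin replicate 1 were thus almost equal. Ptger3 to Slc12a1 was 0.0444 and 0.0440 against 0.0514, 0.0523 and 0.0644. The Fxyd2 to Slc12a1 ratio was 4.17 and 3.004 against 3.62, 2.45 and 2.81, and that of Egf was 2.91 and 2.50 against 2.83, 2.14 and 2.42. These ratios are a description with no test.

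**Figure D3:**
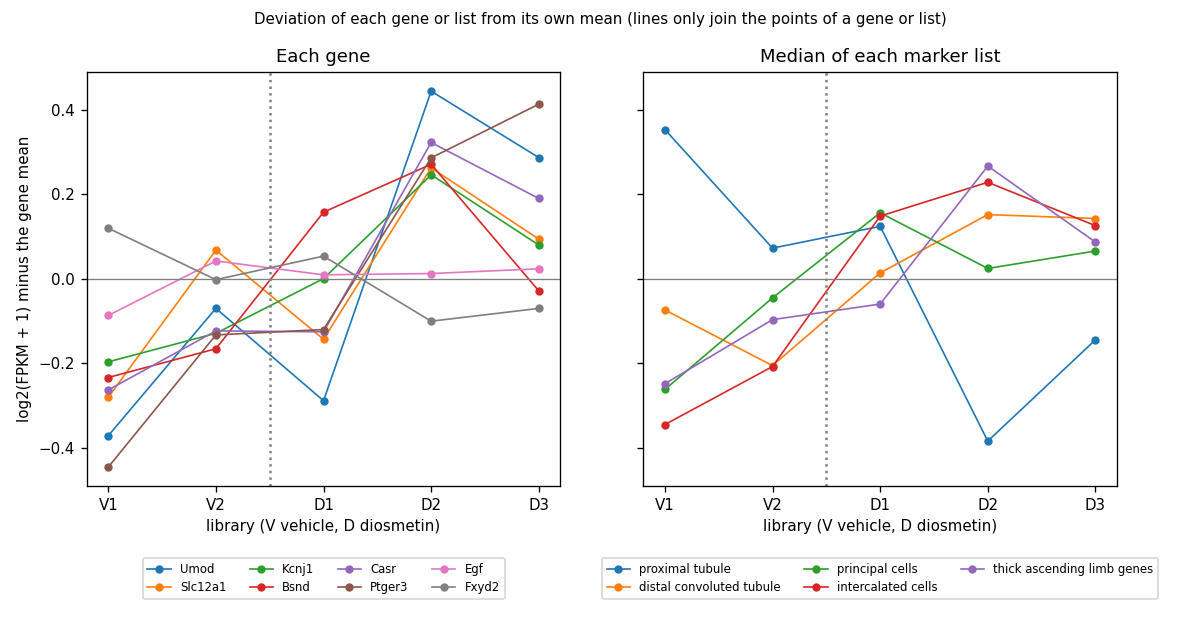
Left, log2(FPKM + 1) of each gene minus its own mean in the 2 vehicle and 3 diosmetin libraries. Right, the median of the same deviation over the proximal tubule, distal convoluted tubule, principal cell and intercalated cell markers and the 8 genes; proximal tubule markers run from 0.35 in V1 to -0.38 in D2, against -0.25 and 0.27 for the 8 genes, and lines only join points.

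Markers of other tubule segments also differed between the group means, and not all in the same direction. The summed level of 16 proximal tubule markers was 11469 and 11529 FPKM with vehicle and 8413, 6904 and 9481 under diosmetin, and 16 of 16 had a lower mean (median log2 difference -0.32). That median was -0.19 without vehicle replicate 1, -0.50 without vehicle replicate 2 and -0.20 without diosmetin replicate 2. In vehicle replicate 1, where 7 of the 8 genes were lowest, the median proximal tubule marker was highest. Kap, an androgen-regulated protein, and Miox, an inositol oxygenase, are its most abundant members. Miox was at 1516 and 1051 FPKM with vehicle and 1352, 868 and 952 under diosmetin, an order of libraries shared with Fxyd2. Kap was at 4708 and 6153 against 2551, 2808 and 4751 FPKM, a large part of each sum, so the separation of the sums leaned on this gene. The part of segment makeup in the differences of the 8 genes was not tested.

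Further along the nephron, 10 of 10 distal convoluted tubule markers had a higher mean under diosmetin (median 0.25), with summed levels of 1253 and 1077 FPKM with vehicle and 1255 to 1532 under diosmetin. Slc12a3, the thiazide-sensitive cotransporter, was at 648 and 542 against 641, 733 and 745 FPKM. Of the principal cell markers 9 of 9 tested were higher (median 0.27, summed 298.95 and 370 against 390 to 405 FPKM), and of the intercalated cell markers 11 of 11 (median 0.41, summed 398 and 389 against 471 to 502 FPKM). The groups did not overlap for 10 of these 11, for 5 of 9 principal cell and 6 of 10 distal convoluted tubule markers, all higher, against 18.3% of all genes. Under the median-of-ratios scaling 8 of 9 principal and 10 of 11 intercalated markers were higher, and 4 of 10 distal convoluted tubule markers were separated (all genes 11.7%). Of the principal cell markers 6 of 9 were higher without vehicle replicate 1, with a median of 0.16. Without vehicle replicate 2 the distal convoluted tubule median was 0.15.

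Podocyte and endothelial markers differed more between the vehicle libraries than between the group means. Summed podocyte markers were 174 and 337 FPKM with vehicle and 188 to 215 under diosmetin, and endothelial markers 203 and 269 against 210 to 249. Stromal markers, of which renin (Ren1) is the most abundant here, were at 139 and 213 against 189 to 351 FPKM. The summed lymphocyte markers were at 3.75 and 3.92 against 4.48 to 5.26 FPKM, a low level. Only 4 of the 10 could be tested, 3 higher and 1 lower. With no filter on low values 5 were higher and 5 lower, with a median of -0.0089. Thin limb markers had 3 of 6 tested genes higher and 3 lower, with summed levels of 329 and 375 against 345 to 358 FPKM and 1 gene listed at 0 in every library. Of 10 tubular injury markers 7 had a higher mean and 3 a lower one (median 0.09, and 0.0063 without diosmetin replicate 3, 0.15 without diosmetin replicate 2, 0.27 without vehicle replicate 2 and 0.036 under the median-of-ratios scaling). Lcn2, the injury marker lipocalin, had the largest difference of this list, at a low level, and does not stand for the other markers. It was at 0.672 and 1.09 FPKM with vehicle and 1.78, 4.85 and 1.298 under diosmetin, with diosmetin replicate 2 far above the rest.

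Among 118 other genes of the segment's transport, regulation and identity, grouped in 9 lists, 110 could be tested. Of these 84 had a higher and 26 a lower mean under diosmetin, with a median log2 difference of 0.11, against 0.04 over all genes. That median was 0.066 without vehicle replicate 1, 0.17 without vehicle replicate 2 and 0.063 under the median-of-ratios scaling. The groups did not overlap for 34 genes in the higher direction and 3 in the lower, against 18.3% and 6.17% of all genes tested. None passed at an adjusted p of 0.05 by limma, while 17 higher and 1 lower gene had an unadjusted p under 0.05 (all genes 4.68% and 1.69%). Under the median-of-ratios scaling 73 were higher and 37 lower, and the groups did not overlap for 27 and 5 (all genes 11.7% and 10.6%). At the unadjusted level there were 7 higher genes without vehicle replicate 1 (all genes 1.99%), 8 without diosmetin replicate 2 (2.04%) and 5 without diosmetin replicate 3 (3.47%). Leaving out diosmetin replicate 1 gave 25 (6.23%), and leaving out vehicle replicate 2 gave 17 (8.15%). Separated in the higher direction were 54 genes without diosmetin replicate 1 (all genes 32.8%) and 68 without vehicle replicate 2 (45.2%).

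Partners of transport were divided, 6 higher and 8 lower of 14 (median -0.06). Kcnj15, a potassium channel subunit, was at 295.5 and 238 FPKM under vehicle against 242, 189 and 207. Slc26a6, an anion exchanger that the proximal tubule expresses, was at 5.63 and 4.71 against 4.10, 3.40 and 3.80 FPKM. Without vehicle replicate 1 the median of this list was 0.07, without vehicle replicate 2 it was -0.12 and without diosmetin replicate 2 -0.0083. Under the median-of-ratios scaling it was -0.11.

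Regulators of Slc12a1 had a higher mean in 14 of 14 tested genes, with a small median of 0.10, and the groups did not overlap for 8, all higher (all genes 18.3%). Stk39, the kinase SPAK that phosphorylates the cotransporter, was at 18.4 and 21.1 FPKM with vehicle and at 22.2, 26.7 and 26.1 under diosmetin. Wnk1, a kinase that activates SPAK, was at 131 and 133 against 141, 159 and 161 FPKM. Ppp1r1a, an inhibitor of protein phosphatase 1, was at 64.3 and 70.6 against 77.3, 96.6 and 78.8 FPKM. In all 3 the lowest diosmetin library was above both vehicle libraries, and none passed (limma, adjusted p = 0.738 for each). Under the median-of-ratios scaling 13 of the 14 were higher with a median of 0.048, 6 were separated (all genes 11.7%), and the number at an unadjusted p under 0.05 went from 4 to 2 (all genes 4.68% and 2.92%). Without vehicle replicate 1 the number higher was 11, and without vehicle replicate 2 the median was 0.18.

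Of the tight junction and magnesium genes 8 of 9 tested had a higher mean (median 0.11), and Cldn14 and Cldn18 were too low to test. Cnnm2, a membrane protein of magnesium handling, was at 15.6 and 13.9 FPKM with vehicle and 16.6, 19.7 and 18.9 under diosmetin. It was the 1 gene of the 9 tested without overlap, against 18.3% of all genes in the higher direction. Rragd, a GTPase of the mTOR pathway, was at 27.5 and 29.8 against 29.6, 34.5 and 36.2 FPKM, and the claudin Cldn3 at 3.40 and 5.38 against 4.78, 6.39 and 5.66. For both, diosmetin replicate 1 lay below vehicle replicate 2. With vehicle replicate 1 left out the list had 5 genes higher and 4 lower with a median of 0.012, and without vehicle replicate 2 the median was 0.26. It was 0.21 without diosmetin replicate 1, 0.058 without diosmetin replicate 2 and 0.059 under the median-of-ratios scaling.

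Hormone receptors that act on the segment had 9 of 13 tested genes higher (median 0.09). Nr3c2, the mineralocorticoid receptor, was at 13.4 and 13.2 FPKM with vehicle and at 15.2 in each diosmetin library, a log2 difference of 0.18 ± 0.06 (limma, unadjusted p = 0.0245, adjusted p = 0.738). Calcr, the calcitonin receptor, was at 1.23 and 0.999 against 1.62, 1.47 and 1.57 FPKM. Avpr1a, a vasopressin receptor, was at 3.38 and 5.21 against 4.53, 5.45 and 6.10 FPKM, with overlap. Leaving out vehicle replicate 1 gave a median of 0.0064, leaving out vehicle replicate 2 a median of 0.17 and leaving out diosmetin replicate 3 a median of 0.044, while rescaling to TPM gave 0.13.

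Downstream of Casr and Ptger3, G proteins, phospholipases and the Cyp4a enzymes that make the arachidonic acid metabolite 20-HETE had 11 of 14 genes higher (median 0.10). Rgs2, which limits Gq signalling, was at 7.20 and 10.6 FPKM with vehicle and 12.4, 11.9 and 13.1 under diosmetin, without overlap. Of the 14 genes 4 were without overlap, all higher, against 18.3% of all genes in that direction. Cyp4a14 was at 337 and 740 against 806, 685 and 631 FPKM, and Cyp4a12a at 3.09 and 4.21 against 12.1, 3.97 and 4.2985. The Cyp4a values were set by single libraries, a low vehicle replicate 1 and a high diosmetin replicate 1, and close paralogs could have shared their fragments. Without vehicle replicate 1 the median of the list was -8.45e-04, with 7 genes higher and 7 lower. Without vehicle replicate 2 it was 0.18, and under the median-of-ratios scaling 0.047.

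The macula densa, the sensor plaque at the end of the segment, was represented by 6 genes of low level, of which 5 were tested and 4 had a higher mean (median 0.21, and 0.32 with a pseudocount of 0.1). Pappa2, a protease of growth factor binding proteins, was at 0.626 and 1.303 FPKM with vehicle and 1.31, 2.05 and 2.14 under diosmetin. Nos1, the neuronal nitric oxide synthase, was at 1.04 and 1.16 against 1.25, 1.72 and 1.58 FPKM, and Ptges, a prostaglandin E synthase, at 8.91 and 9.06 against 9.21, 11.0 and 11.6. For each of these the groups did not overlap, 3 of the 5 tested, against 18.3% of all genes in the higher direction. The lowest diosmetin value was close to the highest vehicle value for Pappa2 and Ptges. None passed (limma, adjusted p = 0.738 for each).

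Proteases of uromodulin and receptors of epidermal growth factor were divided, with 6 higher and 8 lower of 14 (median -0.03). Trpm6, a magnesium channel regulated by epidermal growth factor, was at 20.0 and 13.5 FPKM with vehicle and 20.2, 20.9 and 20.2 under diosmetin, so that vehicle replicate 2 alone stood low. St14, the protease matriptase, was at 11.7 and 13.7 against 14.4, 16.6 and 15.3 FPKM, and Erbb3 at 40.6 and 43.8 against 32.8, 30.1 and 45.5. Hpn, the protease hepsin that releases uromodulin into the urine, is named here after its values were seen. It was at 141 and 136 FPKM with vehicle and 125, 122 and 126 under diosmetin, a log2 difference of -0.15 (limma, adjusted p = 0.738). Of the 14 genes 3 were without overlap in the higher direction (all genes 18.3%) and 1, Hpn, in the lower (all genes 6.17%). The proximal tubule also makes Hpn. The balance of the list turned with single libraries, to 9 higher and 5 lower (median 0.052) without vehicle replicate 1 and to 8 higher and 6 lower (median 0.041) without vehicle replicate 2. Without diosmetin replicate 3 it was 7 to 7, with a median of 0.013.

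Transcription factors of the segment had a higher mean in 14 of 15 (median 0.16), and in 11 of 15 under the median-of-ratios scaling. Esrrb, an oestrogen-related receptor, was at 10.1 and 10.2 FPKM with vehicle and 11.4, 16.4 and 13.1 under diosmetin. Mecom was at 15.9 and 18.5 against 19.3, 23.4 and 21.4 FPKM, and Irx1, a homeobox factor, at 5.84 and 8.64 against 6.69, 11.4 and 8.84. The groups overlapped for Irx1 and did not for Esrrb and Mecom. In the list 6 of 15 were without overlap, all higher, against 18.3% of all genes in that direction. Without vehicle replicate 1 the number higher was 10 of 15, with a median of 0.089, and the median-of-ratios scaling gave a median of 0.11.

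Of 13 other markers tested all 13 had a higher mean (10 of 13 under the median-of-ratios scaling), with a median of 0.25. That median was 0.12 without vehicle replicate 1 and 0.13 without diosmetin replicate 2. Oxgr1, the receptor of alpha-ketoglutarate, was at 17.3 and 14.97 FPKM with vehicle and 22.1, 23.7 and 22.9 under diosmetin, a log2 difference of 0.48 ± 0.08 (limma, unadjusted p = 9.47e-04, adjusted p = 0.738). It is known from intercalated cells, whose markers had a median of 0.41, and its cell of origin here was not tested. Slc5a3, the myo-inositol transporter induced by tonicity, was at 68.5 and 66.6 against 77.2, 97.3 and 81.5 FPKM. Foxq1 was at 10.4 and 24.9 against 13.2, 25.2 and 29.2 FPKM, with a sign that turned without vehicle replicate 1.

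**Figure D4:**
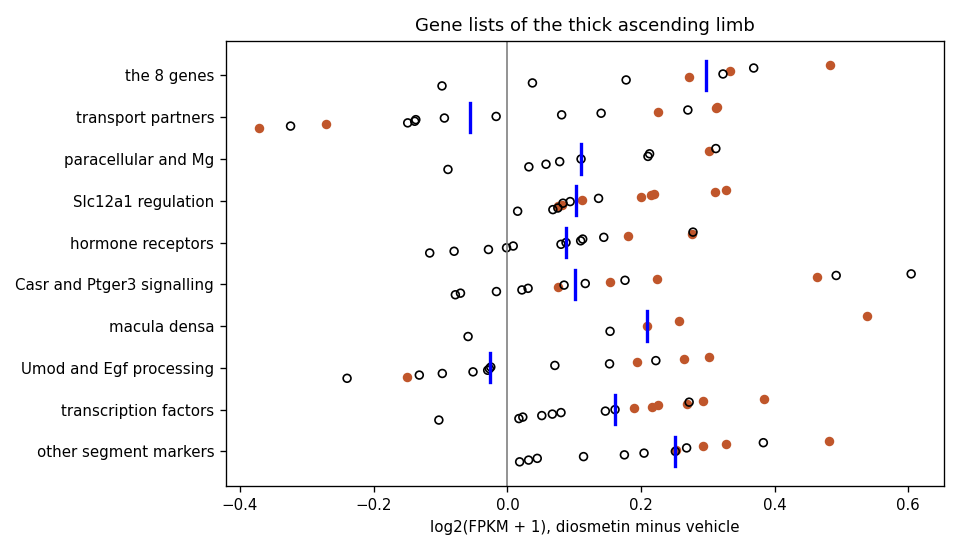
Log2 difference between diosmetin and vehicle (x axis) for every tested gene of the 8 and of the 9 other lists, with filled points where the groups do not overlap and a blue line at the median of each list. Medians of the other lists run from -0.06 for transport partners to 0.25 for other segment markers, against 0.30 for the 8 genes, and no point passed at an adjusted p of 0.05.

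Genes other than the 8 were ranked by likeness to the mean profile of the 8, among 6002 genes with a mean of at least 10 FPKM. Genes of the other lists were eligible. Likeness was measured by the root mean square difference of centred log2 values over the 5 libraries. The 8 closest were St5, Scn4b, Inpp5a, Impdh2, Elovl7, Rpl18, Mrpl52 and Gbas, with differences of 0.017 to 0.030. Scn4b, a sodium channel beta subunit, was at 30.9 and 34.96 FPKM with vehicle and 34.2, 41.2 and 39.0 under diosmetin. Closest to Umod alone were Defb29, a beta-defensin, at 0.064, then Laptm4b at 0.094 and Iars at 0.10. Defb29 was at 21.1 and 24.3 FPKM with vehicle and 23.2, 36.3 and 31.0 under diosmetin, with the same order of all 5 libraries as Umod. With 5 libraries many genes share such an order, and the likeness is a description.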

How the data were processed

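Kidney RNA of 3 diosmetin and 2 vehicle libraries was depleted of ribosomal RNA and sequenced from stranded libraries with paired ends, per the labels' protocols. The authors deposited FPKM values in 1 table, made on GRCm38 according to the submitters' processing notes. Not given in the sources used here are aligner, counter, annotation release and strand setting, so overlapping genes and close paralogs cannot be told apart with certainty. Columns were matched to samples through each label's sample code, and groups come from the treatment label.

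Values were taken as log2(FPKM + 1), which understates changes of low genes. Genes averaging 0.5 FPKM or more (13290) were tested with limma 3.58.1 in R 4.3.3 (variance trend, two-sided, Benjamini-Hochberg at 0.05 over all genes). Every member passed the filter on low values. Other values and figures were made with matplotlib 3.10.9, pandas 2.3.3 and numpy 2.4.6 under Python 3.11.15. The procedure was tested on simulated data. Depth was estimated from whole-fragment steps, which 83.3% of 2162 genes with a mean FPKM under 0.05 showed within 2% and 0.1 fragments, with GENCODE transcript lengths of 544 genes. No count test was run.

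The members and lists were chosen with earlier results of these data known. Genes named are the 8 members, up to 3 genes of each pathway or injury list with the largest difference, the most abundant markers of other cell types, given mostly as sums over their lists, and the genes of most similar profile; 1 gene that this rule names is not reported here. Alternatives were a pseudocount of 0.1, no filter, a mean of at least 1, median-of-ratios, TPM and quantile scaling, no trend, and leaving out each library. Protein sequences were not used here.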

Additional observations from a re-analysis of the deposited data

How the results depend on the processing

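Under 12 alternatives, 7 of the 8 genes kept the direction of their difference. The exception was Egf, whose log2 difference of 0.04 became -0.018 with the median-of-ratios scaling and ranged from -0.027 (without vehicle replicate 1) to 0.10 when a library was left out, while quantile normalization gave 0.17. Over the alternatives the difference ranged from 0.22 to 0.59 for Umod, 0.0033 to 0.35 for Slc12a1, 0.20 to 0.33 for Kcnj1, 0.26 to 0.41 for Bsnd, 0.23 to 0.45 for Casr, 0.33 to 0.64 for Ptger3 and -0.16 to -0.04 for Fxyd2. The number of genes called over all genes by limma was 0 in each of these fits, and the smallest adjusted p of any of the 8 was 0.424. The number of all genes at an unadjusted p under 0.05 fell to 386 when diosmetin replicate 2 was left out and was 1463 when vehicle replicate 2 was. Where a vehicle library is left out, the lone vehicle library is assumed to vary like the diosmetin ones. No paired analysis was possible because the labels give no replicate numbers shared between the groups. The effect of depth on the differences was not tested.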
